A study of Mus musculus with 32 samples.

Results

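The 37 genes of the mouse mitochondrial chromosome were taken as every gene whose GENCODE symbol begins with mt-, out of 50600 genes in the tables. They are 13 protein genes, 2 ribosomal RNA (rRNA) genes and 22 transfer RNA (tRNA) genes, and all of them had an entry. Gene-level read counts and TPM (a transcript abundance scaled to transcript length and library total) were measured by poly(A)-selected RNA sequencing in 32 primary mouse melanomas. The tumours fell into 4 groups of 8, set by sex and by whether the melanocytic lineage was meant to lack Cdh1, the gene for the adhesion protein E-cadherin, so the design asks how E-cadherin loss and sex bear on these tumours. All 4 groups carried the Tyr::NrasQ61K transgene, which drives mutant NRAS from the tyrosinase promoter of pigment cells, together with Cdkn2a-/+ (1 copy of the Cdkn2a tumour suppressor) and Cdh1F/F (both Cdh1 alleles floxed), on a C57BL/6J background. Ecad tumours had °/° at the remaining locus, and ΔEcad tumours had an entry that the labels write as Tyr::NRAS/°, where the methods place a Cre recombinase under the tyrosinase promoter. Such a Cre acts in melanocytic cells only, so skin, vessel and immune cells within a ΔEcad tumour keep Cdh1. Tumours were allowed to grow to a set size, and no age was given. Whether each library came from a different mouse is not given in the sources used here, so that p-values measure the spread between these libraries.

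Mitochondrial DNA is a small circle that is transcribed from both strands into long precursors, which are cut at the tRNAs that punctuate them. Most released messenger RNAs (mRNAs) and both rRNAs receive a poly(A) tail, short on the rRNAs, and mature tRNAs end in CCA instead. Poly(A) selection therefore captures the 3 classes unequally, and the mRNAs need not be captured alike. The encoded proteins are the core of respiratory chain complexes I (the Nd subunits), III (cytochrome b, Cytb) and IV (the Co subunits of cytochrome c oxidase) and of ATP synthase, complex V (Atp6 and Atp8), while the proteins that transcribe, process and replicate the circle are nuclear. In solid tissue, the mitochondrial share of the RNA is known to be high in muscle.

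Part of the circle also exists as an old insertion in nuclear chromosome 1, and 5 of the 13 protein genes have a near-identical copy there over their whole length. The stretches shown here are given 5′ to 3′ from the GENCODE M21 transcripts on GRCm38 and show how alike a mitochondrial gene and a nuclear relative can be. The first pair is mt-Co2, cytochrome c oxidase subunit II (chrM:7313-7372, + strand), and its nuclear copy Gm28661 (chr1:24615206-24615265, − strand), with 0 differences over 60 bases.
mt-Co2: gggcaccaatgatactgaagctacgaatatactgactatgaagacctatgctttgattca
Gm28661: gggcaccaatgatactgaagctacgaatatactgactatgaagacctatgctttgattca
The second pair is mt-Nd3 of complex I (chrM:9459-9518, + strand) and Gm28438 (chr1:24613060-24613119, − strand). The capital marks the only base that differs over the 345 aligned bases.
mt-Nd3: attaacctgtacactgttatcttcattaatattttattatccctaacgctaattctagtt
Gm28438: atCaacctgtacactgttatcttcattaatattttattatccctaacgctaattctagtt
The third pair shows a gene that can be told from its closest relative, mt-Cytb (chrM:14445-14504, + strand) and Gm11410 (chr4:80004289-80004348, + strand), with capitals at the 7 of 60 bases that differ.
mt-Cytb: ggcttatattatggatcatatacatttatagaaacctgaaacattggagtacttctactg
Gm11410: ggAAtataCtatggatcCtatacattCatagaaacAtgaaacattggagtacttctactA

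The chromosome 1 insertion held 7 annotated copies on the minus strand, Gm29216 (of the 3′ part of mt-Co1), Gm28661 (mt-Co2), Gm10925 (mt-Atp6), Gm28437 (mt-Co3), Gm28438 (mt-Nd3), Gm10222 (mt-Nd4l) and Gm28439 (of the 5′ part of mt-Nd4). Their identity to the mitochondrial genes was 99.7% to 100%. Of all 100-base words of mt-Co2, mt-Atp6, mt-Co3, mt-Nd3 and mt-Nd4l, 97.6% to 99.9% also occurred in another transcript, against 60.8% for mt-Nd4, 30.8% for mt-Co1, 3.19% for mt-Nd2 and 0% for mt-Nd1, mt-Nd5, mt-Nd6, mt-Cytb, mt-Atp8 and both rRNAs. No annotated copy lay opposite mt-Atp8, where the insertion had a gap of 233 bases between Gm10925 and Gm28661 that was not examined here. mt-Atp8 also shares its last 43 bases with mt-Atp6, and this stretch (chrM:7927-7969, + strand) is shown because 2 proteins are read from it, with capitals at the start codon of mt-Atp6 and the stop codon of mt-Atp8.
mt-Atp6: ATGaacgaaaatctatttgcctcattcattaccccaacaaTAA

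Leaving mt-Atp8 aside, 7 protein genes have no full-length copy in the chromosome 1 insertion and are called the main protein genes here. They are mt-Nd1, mt-Nd2, mt-Co1, mt-Nd4, mt-Nd5, mt-Nd6 and mt-Cytb. Some match other annotated transcripts over nearly their whole length at lower identity. These are mt-Co1 with Gm13340 (97.6% over 1545 bases), mt-Nd6 with Gm11408 (93.6% over 519) and mt-Cytb with Gm11410 (92.9% over 1142). The 7 held 97.6% of all mitochondrial counts summed over the 32 tumours, and the other 6 held 0.201%. The 6 include mt-Atp8, which has no shared words but a median of 13.5 counts and the overlap with mt-Atp6, and the 7 include mt-Nd4 and mt-Co1, which are shared in part. For mt-Co2, a median of 1076.5 counts per tumour stood beside 1164.5 for its nuclear copy, and for mt-Co3 569 stood beside 584, ratios of 0.924 and 0.974. For mt-Atp6, mt-Nd3 and mt-Nd4l the mitochondrial gene had fewer counts than its copy, with ratios of 0.286, 0.374 and 0.377. For mt-Co1 and mt-Nd4, whose chromosome 1 copies cover only part of the gene, the ratios were 608 and 486. Reads of the 5 genes copied in full in chromosome 1 cannot be told from those of their copies over most of their length. The same holds for the shared parts of mt-Nd4 and mt-Co1, so all these levels are uncertain. How reads that match several places were counted is not given in the sources used here. The values of the 5, and those of mt-Atp8, are given as deposited and are not ranked against the 7.

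In TPM, per unit of full length, mt-Co1, the catalytic subunit of complex IV, had the highest mean level, at 20940.5 ± 10766 TPM (SD, n = 32 throughout this paragraph). mt-Cytb of complex III followed at 14316 ± 7018 TPM and mt-Nd1 of complex I at 12808 ± 8102 TPM. mt-Co1 exceeded mt-Cytb in 29 of 32 tumours, and mt-Cytb exceeded mt-Nd1 in 22 of 32, so that these were not separated in every tumour. mt-Nd4 (4394.5 ± 2234 TPM), mt-Nd2 (3817.5 ± 2236 TPM) and mt-Nd5 (3259 ± 1829 TPM), further complex I subunits, had lower means. In TPM, mt-Nd1 exceeded mt-Nd4 in 32 of 32 tumours, whereas mt-Nd4 exceeded mt-Nd2, and mt-Nd2 exceeded mt-Nd5, in 23 of 32 each. The place of mt-Nd4 depended on the length used. In CPM (counts scaled to library size) per 1000 words found in no other transcript, mt-Nd4 had 4365 ± 2447, near mt-Nd1 (5178 ± 3675) and mt-Cytb (5666 ± 3115) and above mt-Nd2 (1540 ± 857) and mt-Nd5 (1216 ± 664). On that scale mt-Nd1 exceeded mt-Nd4 in 20 of 32 tumours, and mt-Nd4 exceeded both mt-Nd2 and mt-Nd5 in 32 of 32. mt-Co1 stayed highest at 11693 ± 6862. TPM divides the counts by a length that includes shared sequence and the second scale leaves all of it out, and how many reads of the shared parts were counted was not tested. The small-subunit rRNA mt-Rnr1 (764 ± 489 TPM) and the large-subunit rRNA mt-Rnr2 (611 ± 334 TPM) lay below all 6 of these mRNAs on average in TPM, and mt-Rnr1 exceeded mt-Rnr2 in 21 tumours. mt-Nd6, the only protein gene on the minus strand, had 53.6 ± 50.4 TPM, and how fully poly(A) selection captured its mRNA was not tested. Its 3′ end overlaps that of mt-Nd5 on the other strand by 14 bases, and since the strand setting of the counting is not given in the sources used here, reads of mt-Nd6 and of the RNA opposite it cannot be told apart. The 6 genes with shared or overlapping sequence ran from 134 ± 81.9 TPM for mt-Co2 and 61.8 ± 46.4 for mt-Co3 down to 19.8 ± 11.0 for mt-Atp6, 7.94 ± 9.76 for mt-Atp8, 4.77 ± 3.60 for mt-Nd3 and 3.41 ± 2.53 for mt-Nd4l.

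**Figure D1:**
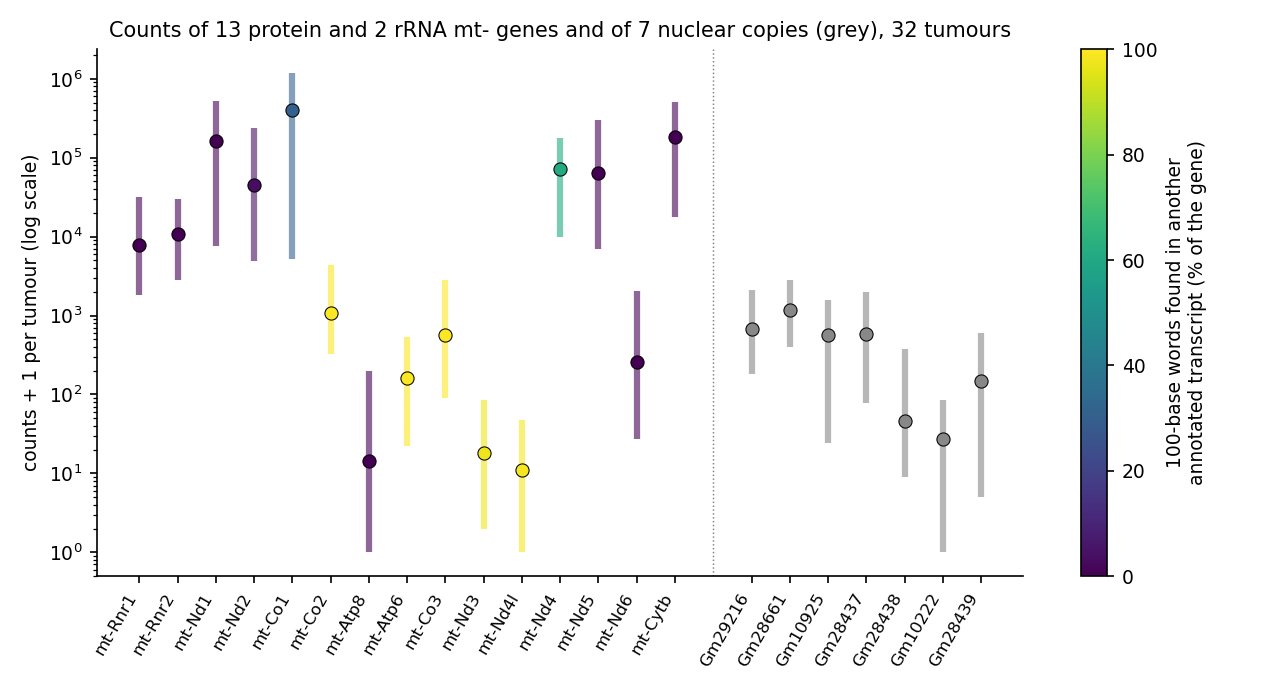
Counts plus 1 per tumour on a log axis for the 13 protein and 2 rRNA genes in chromosome order and, in grey, the 7 chromosome 1 copies, with points at the median and bars from the lowest to the highest of 32 tumours, coloured by the percentage of 100-base words shared with another transcript. Among the 7 main protein genes, mt-Nd6 has the lowest median (258 counts). Among the genes copied in full in chromosome 1, mt-Co2 has the highest (1076.5 counts), and the values of those genes are as deposited and not ranked against the 7.

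The 22 tRNA genes together held 2232 counts over the 32 tumours, 0.0068% of the mitochondrial counts, and 9 of them had 0 counts in every tumour, which allows up to 3 counts per tumour. The highest was mt-Tt, the threonine tRNA gene that directly follows mt-Cytb (chrM:15289-15355, + strand, 67 bases), with a median of 20.5 and a maximum of 223 counts. It is shown whole as the tRNA gene with the most counts.
mt-Tt: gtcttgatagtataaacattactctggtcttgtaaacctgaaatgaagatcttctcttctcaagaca
The tryptophan tRNA mt-Tw, which overlaps mt-Nd2 by 2 bases, had a median of 8.5 and a maximum of 137 counts. These values count fragments assigned to the tRNA genes, mature or not, and give no level of mature tRNA.

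The mitochondrial genes together took 0.256% to 8.71% of a library, and 1 of them was among the 10 most counted genes in 30 of 32 tumours and the single most counted in 8. In Ecad males the share was 1.45% at the lowest, 3.10% at the median and 5.48% at the highest, and in ΔEcad males 0.256%, 2.04% and 3.19%. In Ecad females it was 1.47%, 2.57% and 3.78%, and in ΔEcad females 1.75%, 3.42% and 8.71%. The ranges of all 4 groups overlapped, with the lowest tumour a ΔEcad male (number 1) and the highest a ΔEcad female (number 7). The means were 3.12% ± 1.20 (SD, n = 8) in Ecad males, 1.94% ± 1.09 (SD, n = 8) in ΔEcad males, 2.53% ± 0.871 (SD, n = 8) in Ecad females and 3.78% ± 2.22 (SD, n = 8) in ΔEcad females. Because the share is a sum over chosen genes, it is given with no test.

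**Figure D2:**
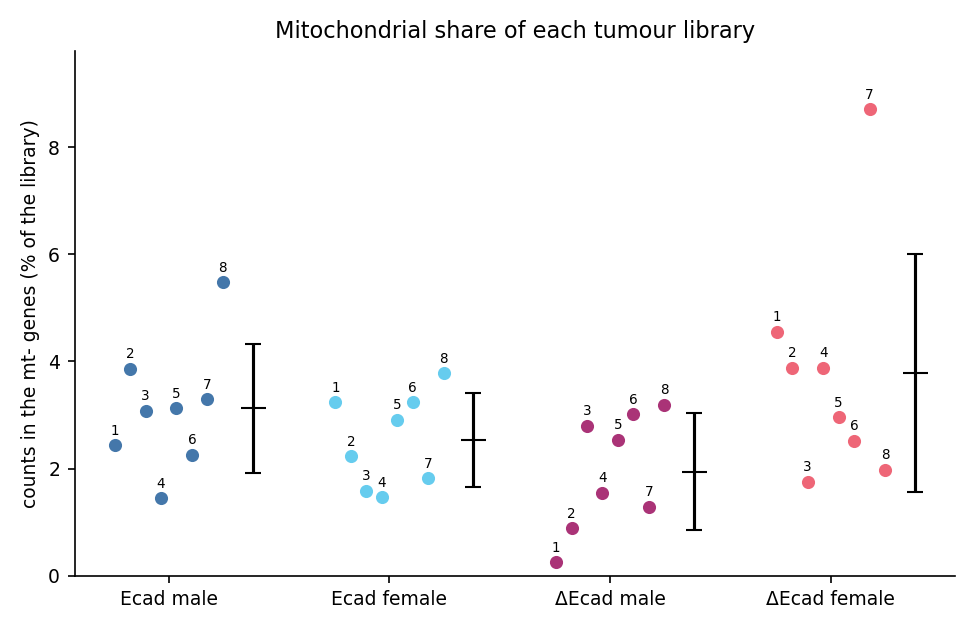
Share of each library's counts in the 37 mitochondrial genes, in percent, 1 numbered point per tumour, with a bar at the mean and SD of each group of 8. The group ranges overlap, ΔEcad female 7 lies highest at 8.71% and ΔEcad male 1 lowest at 0.256%.

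In females the mean share was 1.25 percentage points higher in ΔEcad than in Ecad tumours, less than the pooled SD of 1.69, and 4 of 8 ΔEcad females lay above every Ecad female. Without ΔEcad female 7 the difference was 0.545. In males the mean was 1.18 points lower in ΔEcad tumours (difference −1.18, pooled SD 1.15), and 3 of 8 ΔEcad males lay below every Ecad male. These 3 were ΔEcad males 1, 2 and 7, whose libraries were unusual in other ways given below. They were left out singly and not together. The difference in males was −0.942 without ΔEcad male 1 and −0.846 without Ecad male 8. Among ΔEcad tumours the females were 1.84 points above the males (pooled SD 1.75), or 1.14 without ΔEcad female 7, and among Ecad tumours the difference was −0.59, or −0.254 without Ecad male 8.

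Markers of other cell types were high together with the share in some tumours and not in others. Fewer cells of a type cannot be told apart from less RNA per cell in bulk tumours. ΔEcad female 7 also had the highest summed level of a list of 10 skeletal muscle genes, 29077 TPM, including 15087 TPM of skeletal actin Acta1 against at most 6618 in the other tumours. The muscle sum ranged from 498 to 20289 TPM in Ecad males (median 3790), from 3.60 to 5519 in Ecad females (median 17.8), from 4.62 to 3206 in ΔEcad males (median 484) and from 5.17 to 29077 in ΔEcad females (median 1278), and all 10 genes were above 3 counts in at least 1 tumour of each group. Ecad male 8, with the second highest mitochondrial share, had 5613 TPM, whereas Ecad male 5 had 20289 TPM of muscle genes at a share of 3.12%. The keratinocyte list (10 genes) had medians of 5399 TPM in Ecad males (1.52 to 25125) and 6891 in ΔEcad females (1.80 to 40904). Its medians were 481 in ΔEcad males (2.10 to 16026) and 2.00 in Ecad females (0.40 to 1836). The order of the groups was not that of their mean shares, since Ecad females had the lowest median and ΔEcad males the lowest mean share. In Ecad male 8 the keratinocyte sum was 419 TPM. An adipocyte list (6 genes) also peaked in ΔEcad female 7, at 6548 TPM, with medians of 1024 (males) and 50.8 (females) in Ecad and of 333 (males) and 258 (females) in ΔEcad tumours. All genes of both lists were above 3 counts in at least 1 tumour of each group. A brown adipocyte list (5 genes) peaked instead in ΔEcad male 5, at 2318 TPM, with 311 TPM in ΔEcad female 7. No association of these lists with the mitochondrial share was computed across tumours, and the part of muscle, skin or fat RNA in it was not tested.

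Other libraries also stood apart. Library totals ran from 24036333 to 63923086 counts. The melanocytic list (8 genes) summed to 5885 to 76071 TPM in 31 tumours and to 31.8 TPM in ΔEcad male 7. Sex-linked genes went against the label of 1 tumour, ΔEcad male 2, with Xist at 6.41 TPM and the Y-linked genes at 0, against at most 0.04 and at least 29.5 TPM in the other ΔEcad males. ΔEcad female 3 had 0.00 TPM of red blood cell genes and 0.48 TPM of endothelial genes. Cdh1 itself ranged from 25.0 to 282 TPM in Ecad males and from 0.79 to 65.2 in ΔEcad males, with a log2 fold change of −3.33 ± 0.956 (SE) and an adjusted p of 0.365. In females its ranges were 2.16 to 151 TPM (Ecad) and 0.17 to 143 TPM (ΔEcad), with a log2 fold change of −0.0024 ± 0.873 (adjusted p = 0.999), so no lower Cdh1 level was detected in the ΔEcad females. The keratinocyte list, whose cells express Cdh1, reached higher sums in ΔEcad than in Ecad females, as given above, and its part in the Cdh1 level was not tested. Leaving out the libraries with unusual markers moved the differences in mitochondrial share to −1.03 (without the library labelled ΔEcad male 2) and −1.09 (without ΔEcad male 7) in males and to 1.54 in females (without ΔEcad female 3). Between the sexes in ΔEcad tumours, the difference in share was 1.69 without the library labelled ΔEcad male 2.

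Within the 7 main protein genes, the balance was described as each gene's percentage of their summed counts, which does not depend on the library total. mt-Co1 took 41.2% ± 8.72 (SD, n = 32), mt-Cytb 21.9% ± 4.71, mt-Nd1 15.2% ± 3.49, mt-Nd4 8.11% ± 2.55, mt-Nd5 7.99% ± 3.14, mt-Nd2 5.39% ± 2.16 and mt-Nd6 0.138% ± 0.604. These percentages grow with gene length. Per word found in no other transcript, an alternative chosen after seeing the data, mt-Nd4 took 15.0% ± 4.23, beside 16.6% ± 3.74 for mt-Nd1, and mt-Nd5 took 4.33% ± 1.73, so the near-equal counts of mt-Nd4 and mt-Nd5 did not hold per unshared length. The others were 38.7% ± 8.58 for mt-Co1, 19.5% ± 3.99 for mt-Cytb, 5.54% ± 2.24 for mt-Nd2 and 0.283% ± 1.21 for mt-Nd6. Relative to its mean, mt-Nd6 varied most among tumours (coefficient of variation 438%), followed by mt-Nd2 (40.1%), mt-Nd5 (39.3%) and mt-Nd4 (31.5%). mt-Nd1 (22.9%), mt-Cytb (21.5%) and mt-Co1 (21.1%) varied least. The large value of mt-Nd6 rested on ΔEcad male 1: over the other 31 tumours its percentage was 0.0312 ± 0.0193 and that of mt-Co1 was 42.3 ± 6.67.

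**Figure D3:**
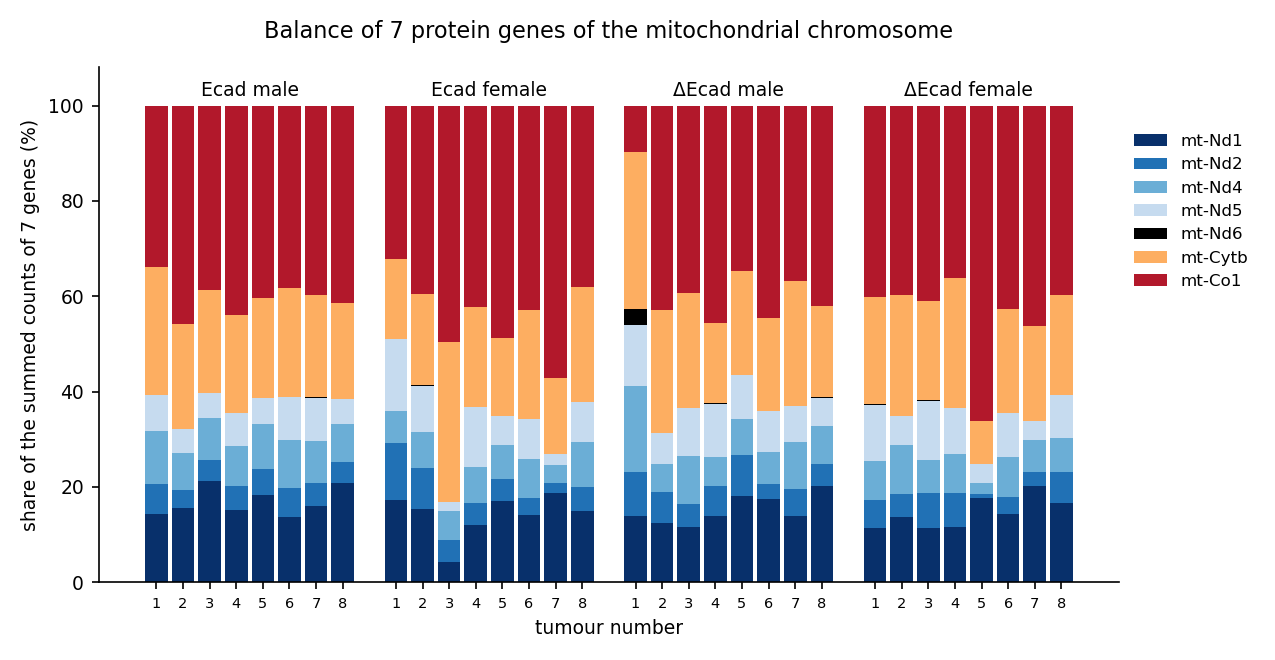
Percentage of each of the 7 main protein genes in their summed counts, as 1 stacked bar per tumour, by group and tumour number. mt-Co1 (top segment) takes 32.1% to 66.2% in 31 tumours and 9.78% in ΔEcad male 1, the only bar with a clearly visible mt-Nd6 segment (3.44%).

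For each of the 7 main genes, the 4 group means spanned less than the SD of single tumours within groups. A group mean varies less than a single tumour, and no group difference in balance was tested. For mt-Co1 the 4 group means ran from 36.9% to 44.0% with an SD within groups of 8.63 percentage points. For mt-Cytb they ran from 21.0% to 23.3% with an SD of 4.86, and for mt-Nd1 from 14.3% to 16.9% with an SD of 3.50. The same held for the remaining complex I subunits, with mt-Nd4 at 7.04% to 9.07% (SD 2.48), mt-Nd5 at 6.71% to 8.97% (SD 3.18) and mt-Nd2 at 4.88% to 6.04% (SD 2.22). mt-Nd6 was at 0.0221% to 0.454% (SD 0.604), values that rested on ΔEcad male 1. Summed over all 13 protein genes, complex I held 36.8%, complex III 21.8%, complex IV 41.4% and complex V 0.0203% of the counts. The complex V figure rests on mt-Atp6, whose sequence is shared, and on mt-Atp8, and is therefore not a measure of how much ATP synthase mRNA the tumours held.

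Single tumours departed from this balance in different genes. In ΔEcad female 5, mt-Co1 reached 66.2%, while mt-Cytb (8.96%), mt-Nd4 (2.48%) and mt-Nd2 (0.855%) were each the lowest of the 32 tumours. In Ecad female 3, mt-Nd1 (4.24%) and mt-Nd5 (1.85%) were the lowest and mt-Cytb (33.6%) the highest. In Ecad female 1, mt-Nd5 (15.1%) and mt-Nd2 (11.9%) were the highest. What differed between these libraries in RNA quality or fragment length is not given in the sources used here.

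ΔEcad male 1 lay outside the range of the other 31 tumours in some mitochondrial measures and inside it in others. Its counts of mt-Co1 were 185 CPM, against 3736 to 39248 CPM in the other tumours. The rRNAs were inside: mt-Rnr1 had 193 CPM, within the 29.3 to 851 CPM of the others, and mt-Rnr2 had 442 CPM, within 45.5 to 999. It therefore held 331 rRNA counts per 1000 counts of the 13 protein genes, against 4.75 to 36.2 elsewhere. mt-Nd6 had 249 TPM, above the 3.29 to 197 TPM of the others, and 269 counts per 1000 counts of mt-Nd5 against 1.27 to 8.08. mt-Cytb was its most counted mitochondrial gene (mt-Co1 in all 31 others) and ranked 223rd in the library, where the top mitochondrial gene of every other tumour ranked between 1 and 16. In counts not scaled to library size, the 7 chromosome 1 copies summed to 1273, the lowest of the 32 (1372 to 8093 in the others). Within the 7 main protein genes, its percentages of mt-Co1 (9.78%), mt-Nd4 (18.1%) and mt-Nd6 (3.44%) lay outside the others, and those of mt-Nd1 (14.0%), mt-Nd2 (9.04%), mt-Nd5 (12.8%) and mt-Cytb (32.9%) lay inside.

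RNAs that lack a poly(A) tail were examined in the same tumour after these values had been seen. Rn7sk, a nuclear RNA that regulates transcription elongation, had 49.7 CPM against 0.234 to 3.94 in the others. Rmrp had 3.92 CPM against 0 to 1.50 and Rpph1, the RNA of ribonuclease P, 9.07 CPM against 0 to 3.00. The 68 clustered histone genes, taken by symbol alone, summed to 231 CPM, within the range of the others (78.1 to 281). Whether each of these histone genes makes an RNA without a tail was not checked. The part of these RNAs, or of the way this library was made, in its mitochondrial values was not tested.

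**Figure D4:**
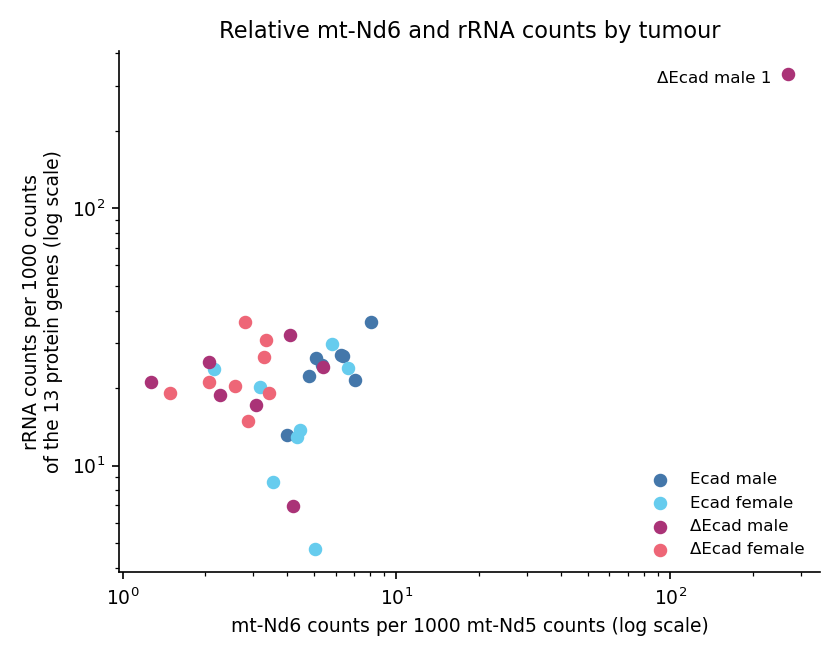
Counts of both rRNAs per 1000 counts of the 13 protein genes against counts of mt-Nd6 per 1000 counts of mt-Nd5, both on log axes, 1 point per tumour coloured by group. ΔEcad male 1 lies apart at 331 and 269, where the other 31 tumours lie between 4.75 and 36.2 and between 1.27 and 8.08.

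Across groups the rRNA ratio overlapped throughout. Per 1000 protein counts it was 13.2, 25.4 and 36.2 (lowest, median, highest) in Ecad males, 4.75, 17.0 and 29.8 in Ecad females and 14.9, 20.7 and 36.1 in ΔEcad females, beside 6.94, 22.6 and 331 in ΔEcad males. All 4 ranges overlapped, and the highest value was again ΔEcad male 1. For mt-Nd6 per 1000 mt-Nd5 counts the medians were 5.81 in Ecad males (3.99 to 8.08), 4.39 in Ecad females (2.16 to 6.64), 3.59 in ΔEcad males (1.27 to 269) and 2.83 in ΔEcad females (1.49 to 3.43). The highest ΔEcad female lay below every Ecad male but above the lowest Ecad female. No test was run on these ratios.

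Differences between groups were tested gene by gene with edgeR on all 17717 genes that passed a filter on low counts, and a gene was called at an adjusted p under 0.05 and a log2 fold change beyond 1 in either direction. Of the 37 mitochondrial genes, 17 passed the filter, namely the 13 protein genes, both rRNAs, mt-Tt and mt-Tw. None of the 17 was called in any of the 5 comparisons by edgeR, nor by limma voom or DESeq2. The comparisons share groups, since each group enters both a genotype and a sex comparison. The mitochondrial genes are cut from shared precursors, so the number of them in 1 direction is not a number of independent observations.

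For E-cadherin loss in females, 0 of 17 were called, where 1.20% of all genes tested were called and 15.3% had an unadjusted p under 0.05 (1 of the 17 did). The fold changes of the mitochondrial genes (ΔEcad over Ecad) had a median of 0.48 on the log2 scale, and 14 of 17 were above 0. Over all genes the median was −0.02, and 8579 of 17717 were above 0. mt-Rnr1 had 88.9, 531 and 964 TPM (lowest, median, highest) in Ecad females and 342, 1057 and 2340 TPM in ΔEcad females. The median of the ΔEcad females lay above every Ecad female, and the lower ΔEcad females overlapped the Ecad range. Its log2 fold change was 1.23 ± 0.45 (SE, adjusted p = 0.145), the smallest p among the 17, and over all alternatives the adjusted p ran from 0.0555 to 0.309. mt-Rnr2 had 83.1, 440 and 966 TPM in Ecad and 349, 838 and 1497 TPM in ΔEcad females, and a log2 fold change of 0.84 ± 0.46 (adjusted p = 0.397). mt-Co1 had 12368, 19714 and 26214 TPM in Ecad and 15456, 23768 and 60184 TPM in ΔEcad females, with overlapping ranges and a log2 fold change of 0.51 ± 0.46 (adjusted p = 0.686).

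None of the other mitochondrial mRNAs was past the threshold in females, with mt-Nd1 at 0.55 ± 0.50 and mt-Cytb at 0.44 ± 0.40 on the log2 scale. Of the mRNAs copied in full in chromosome 1, mt-Atp6 was at 0.54 ± 0.41, mt-Co2 at 0.74 ± 0.38 and mt-Co3 at 0.78 ± 0.43. mt-Nd6, on the other strand, was at −0.53 ± 0.64. ΔEcad female 7 weighed on these values: without it the median of the 17 was 0.09, mt-Co1 was at 0.17, mt-Co2 at 0.16 and mt-Co3 at 0.08, while mt-Rnr1 was at 1.03. The 7 chromosome 1 copies had a median of 0.67, all 7 above 0 and 0 called.

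**Figure D5:**
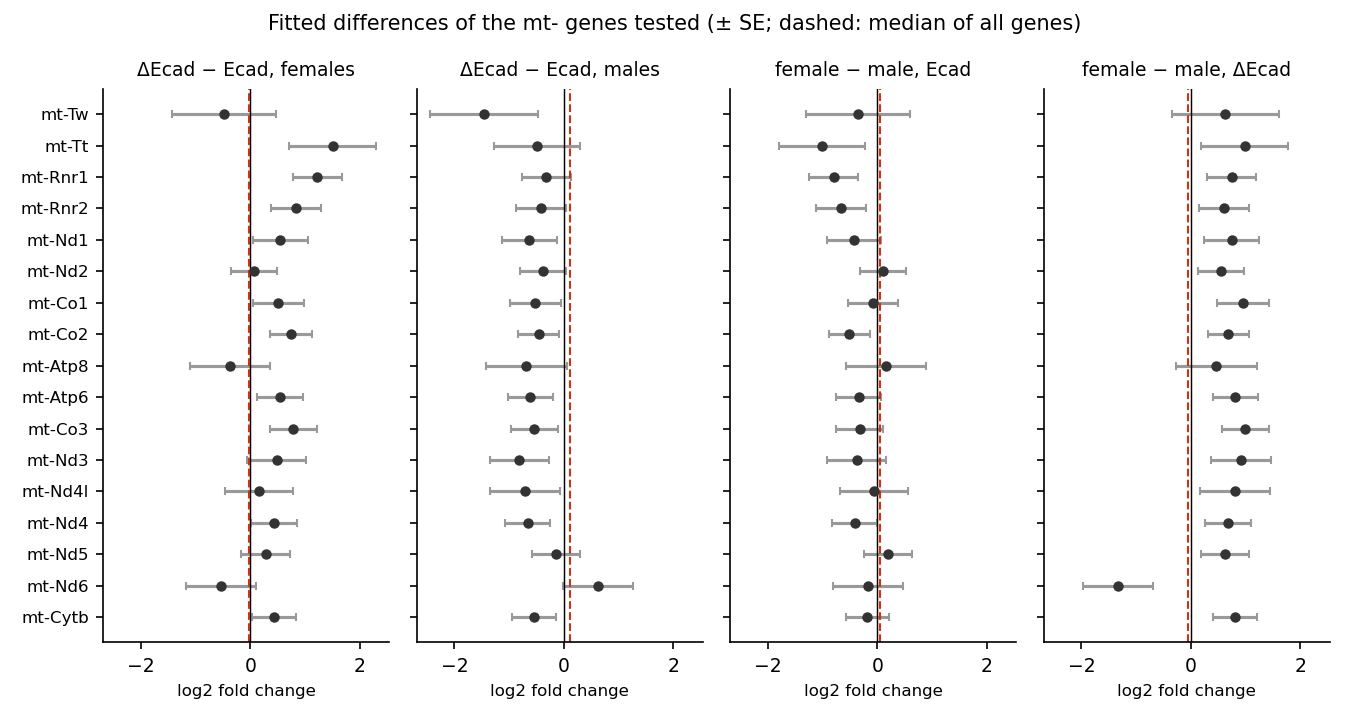
Log2 fold changes with their standard errors for the 17 mitochondrial genes that passed the low-count filter, in the genotype and sex comparisons, with a dashed line at the median of all genes tested. None is called, and mt-Rnr1 in females (1.23 ± 0.45) lies farthest from 0 in units of its error.

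For E-cadherin loss in males, 0 of 17 were called, where 0% of all genes were called and 10.2% had an unadjusted p under 0.05 (0 of the 17). Here 16 of 17 estimates were below 0, with a median of −0.54, beside 7247 of 17717 and a median of 0.11 over all genes. mt-Co1 had 10782, 21114 and 38310 TPM in Ecad males and 237, 16300 and 23739 TPM in ΔEcad males, and a log2 fold change of −0.52 ± 0.46 (adjusted p = 0.695). mt-Cytb was at −0.55 ± 0.40, mt-Nd1 at −0.63 ± 0.50, mt-Atp6 at −0.61 ± 0.41, mt-Co2 at −0.46 ± 0.38 and mt-Co3 at −0.54 ± 0.43. The rRNAs were at −0.32 ± 0.44 (mt-Rnr1) and −0.42 ± 0.45 (mt-Rnr2). mt-Nd6 was the exception at 0.62 ± 0.64, but had 31.8, 55.3 and 118 TPM in Ecad and 3.29, 31.7 and 249 TPM in ΔEcad males. Without ΔEcad male 1, the tumour with 249 TPM, the estimate for mt-Nd6 was −0.88.

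Between the sexes, 0 of 17 were called among Ecad tumours, where 0.0508% of all genes were called and 16% had an unadjusted p under 0.05 (0 of the 17). The median (female over male) was −0.34 with 14 of 17 below 0, beside 0.05 over all genes with 8175 of 17717 below 0. mt-Rnr1 was at −0.80 ± 0.45 (adjusted p = 0.384), mt-Rnr2 at −0.66 ± 0.45, mt-Nd1 at −0.43 ± 0.50, mt-Atp6 at −0.34 ± 0.41, mt-Co2 at −0.51 ± 0.38, mt-Co3 at −0.32 ± 0.43, mt-Cytb at −0.18 ± 0.40, mt-Nd6 at −0.17 ± 0.63 and mt-Co1 at −0.079 ± 0.46. Among these, only mt-Rnr1, mt-Rnr2 and mt-Co2 lay farther from 0 than their error. The estimates of mt-Cytb, mt-Nd6 and mt-Co1 changed sign without single tumours.

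Among ΔEcad tumours, 0 of 17 were called between the sexes, where 0.0395% of all genes were called and 8.81% had an unadjusted p under 0.05 (3 of the 17). The median was 0.75 with 16 of 17 above 0, beside −0.06 over all genes with 7988 of 17717 above 0. ΔEcad male 2, whose sex-linked genes went against its label, was kept as a male here, and without it the median of the 17 was 0.63. The 3 with an unadjusted p under 0.05 were mt-Co3 (1.00 ± 0.44, adjusted p = 0.539), mt-Co1 (0.96 ± 0.47, adjusted p = 0.565) and mt-Nd6 (−1.33 ± 0.65, adjusted p = 0.564). mt-Nd6 had 19.4, 38.1 and 57.9 TPM in ΔEcad females, inside the range of the ΔEcad males, and its estimate without ΔEcad male 1 was 0.21. mt-Cytb was at 0.80 ± 0.40, mt-Atp6 at 0.81 ± 0.42, mt-Nd1 at 0.75 ± 0.50, mt-Co2 at 0.69 ± 0.38, mt-Rnr1 at 0.75 ± 0.45 and mt-Rnr2 at 0.60 ± 0.45.

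The genotype differences of the 2 sexes lay on opposite sides of 0 for most mitochondrial genes, and the interaction term tested that contrast directly. By that test 0 of 17 were called, where 0% of all genes were called and 17.7% had an unadjusted p under 0.05 (3 of the 17). The median interaction (females minus males) was 1.09 with 16 of 17 above 0, beside −0.16 over all genes with 7334 of 17717 above 0. mt-Rnr1 was at 1.55 ± 0.63 (adjusted p = 0.182), mt-Co3 at 1.32 ± 0.61 (adjusted p = 0.251) and mt-Co2 at 1.20 ± 0.53 (adjusted p = 0.230). mt-Rnr2 was at 1.26 ± 0.64, mt-Nd1 at 1.18 ± 0.71, mt-Atp6 at 1.15 ± 0.59, mt-Co1 at 1.04 ± 0.66, mt-Cytb at 0.98 ± 0.56 and mt-Nd6 at −1.16 ± 0.90. Without single tumours the median of the 17 ran from 0.64 to 1.30, and it was 0.97 without the library labelled ΔEcad male 2. In the share of the library the corresponding difference of differences was 2.43 percentage points.

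The nuclear genes that transcribe, process and maintain the mitochondrial genome gave no called difference either. Of a list of such genes, 40 genes were tested and 0 were called in any comparison, and their median log2 fold changes were 0.06 (genotype in females), 0.14 (genotype in males), 0.05 (sex in Ecad), −0.07 (sex in ΔEcad) and −0.08 (interaction). In females the smallest p-values belonged to Grsf1, an RNA-binding protein of mitochondrial RNA granules (−0.67 ± 0.29, adjusted p = 0.240), the coactivator Ppargc1a (−1.72 ± 0.88, adjusted p = 0.351) and the transcription factor Nrf1 (−0.35 ± 0.23, adjusted p = 0.515). In males they belonged to Slirp, which binds and stabilises mitochondrial mRNAs (1.10 ± 0.35, adjusted p = 0.387), 1110008L16Rik, the nuclease subunit of mitochondrial ribonuclease P (0.60 ± 0.23, adjusted p = 0.428), and the elongation factor Tefm (0.48 ± 0.24, adjusted p = 0.497).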

How the data were processed

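Total RNA from 32 tumours was made into stranded, poly(A)-selected libraries and sequenced in pairs. The authors aligned reads with STAR to mm10 (GENCODE annotation) and deposited whole-number read counts per gene; quality control with FastQC 0.11.5 is named in the submitters' processing notes. The authors also deposited TPM values for the same genes. How multi-mapping reads and strand were counted, and whether batches were corrected in these tables, is not given in the sources used here. Gene IDs were matched to GENCODE M21 for symbols (50376 of 50600), coordinates and transcripts. No column of other samples was found (0).

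Shares and balances were computed from counts, levels from TPM. Counts were fitted with edgeR 4.0.16 (R 4.3.3; TMM, filterByExpr, robust quasi-likelihood F-test, Benjamini-Hochberg adjustment) in 1 model of all 32 tumours with 1 coefficient per group, common dispersion 0.624. Group, sex and replicate number came from the labels. Alternatives were other scalings, filters and designs, limma 3.58.1 (voom), DESeq2 1.42.0, and leaving out each tumour. Shared sequence was counted as 100-base words found in another transcript, and copies were aligned with BLAST 2.17.0. Wilson 95% intervals lay within 0.0101 percentage points of each mitochondrial share and 0.397 of each gene's percentage within the 7 genes, for counting error only.

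Values are given singly for both rRNAs, mt-Co1, mt-Cytb, mt-Atp6, mt-Nd1, mt-Nd6 and any mitochondrial gene called or with an unadjusted p under 0.05 (which added mt-Co2 and mt-Co3), and for the 3 smallest p-values of the nuclear list in each genotype comparison. The members and lists were chosen with earlier results of these data known. The division of the protein genes into 7 main genes and 6 others, the scale per unshared word, the copy Gm10222 and the RNAs without a tail were added after seeing the data. The highest correlation between 2 libraries, in log2 CPM of the genes that passed the filter, was 0.963. The edgeR fit was tested on simulated counts for the genotype comparison in females only.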

Additional observations from a re-analysis of the deposited data

Results flagged for a closer look

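Of 48 group and measure combinations (12 measures in 4 groups of 8), 14 values lay far from the rest of their group by Dixon's criterion, which flags about 1 in 20 groups by chance. ΔEcad female 7 had the highest mitochondrial share, 8.71% of counts and 16.2% of TPM. ΔEcad male 1 had 331 rRNA counts per 1000 protein counts, 269 mt-Nd6 counts per 1000 mt-Nd5 counts and, within the 7 protein genes, 9.78% mt-Co1, 18.1% mt-Nd4 and 3.44% mt-Nd6. ΔEcad female 5 had 66.2% mt-Co1, 2.48% mt-Nd4 and 8.96% mt-Cytb. Ecad female 3 had 4.24% mt-Nd1 and 33.6% mt-Cytb, Ecad female 1 had 0.100% mt-Nd6 and Ecad male 1 had 26.8% mt-Cytb. No explanation was tested for these values.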

How the results depend on the processing

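No mitochondrial gene was called under any alternative run. Of 1836 recomputed fold changes of the 9 named mitochondrial genes, 13 had the other sign, 0 of them past the threshold. For mt-Nd6 these were −0.63 (males), 0.11 (sex in ΔEcad) and 0.38 (interaction) by limma voom, −0.88, 0.21 and 0.32 without ΔEcad male 1, and 0.037 for sex in Ecad without Ecad male 7. For sex in Ecad, mt-Co1 was at 0.076 by limma voom, 0.16 without Ecad male 8 and 0.02 without Ecad female 4, and mt-Cytb at 0.014 without Ecad male 8. Leaving out each tumour, mt-Nd6 ran from −0.88 to 0.83 in males, −0.70 to 0.037 for sex in Ecad, −1.51 to 0.21 for sex in ΔEcad and −1.37 to 0.32 in the interaction, and for sex in Ecad mt-Co1 ran from −0.17 to 0.16 and mt-Cytb from −0.35 to 0.014. The median of the 17 tested genes ran, leaving out each tumour, from 0.09 to 0.63 (females), −0.75 to −0.30 (males), −0.51 to −0.08 (sex in Ecad), 0.35 to 1.01 (sex in ΔEcad) and 0.64 to 1.30 (interaction).

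Differences in mitochondrial share ran, leaving out each tumour, from 0.545 to 1.54 (females), −1.42 to −0.846 (males), −0.830 to −0.254 (sex in Ecad) and 1.14 to 2.13 (sex in ΔEcad). With rRNA genes alone the share difference was −0.0257 in males and 0.0404 for sex in ΔEcad, and on TPM −2.62 and 3.64. On TPM, complex V held 0.0466%. Per unshared word, complexes I, III and IV held 41.8%, 19.5% and 38.7%, and within the 7 main protein genes mt-Nd4 was at 15.0% and mt-Nd5 at 4.33%.

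The count of all called genes was far less stable. In females (213) it was 322 with RLE scaling, 334 with library totals, 368 with totals without mt- genes, 555 with no filter, 1 with only the groups compared, 1 with limma voom and 1281 with DESeq2, and 1 to 659 leaving out each tumour, with 1 to 3 left without any of Ecad females 1, 2, 3, 4, 6, 7 and 8 or ΔEcad females 1, 2 and 7 and 659 without ΔEcad female 4. In males (0) DESeq2 gave 21 and the left-out range was 0 to 0. For sex in Ecad (9) it was 322 with only the groups compared, 115 with voom, 1023 with DESeq2 and 8 to 21 (21 without Ecad female 5). For sex in ΔEcad (7) it was 0 with only the groups compared, 24 with DESeq2 and 7 to 8. For the interaction (0) it was 201 with RLE, 506 with library totals, 522 without mt- genes, 284 with no filter, 1225 with DESeq2 and 0 to 838 (838 without ΔEcad male 3). The cause was not tested. Library totals moved the median of all genes from 0.11 to −0.08 in males and from −0.16 to 0.14 in the interaction.

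The replicate numbers do not pair the tumours: 1 of 32 correlated best with its own number. With a replicate block, 1 gene was called in females, and mt-Nd6 was at −0.32 in males and 0.29 in the interaction.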
